A study of Rattus norvegicus with 87 samples.

Results

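The lateral habenula (LHb) was compared between rats in which 3 immediate-early genes, Fos, Junb and Egr1, stood high and rats in which they stood low. The tissue came from Heterogeneous Stock (HS) rats, which are outbred, and polyadenylated RNA had been profiled by RNA-Seq. Neither drugs nor behavioral tests had preceded tissue collection and the animals shared cages, so no treatment in the labels sets the high and the low rats apart. The LHb is a small nucleus above the thalamus, and it was cut by hand from frozen sections, with the tissue of both sides of a rat joined into 1 sample. The labels list 87 samples, of which 81 have expression values, 41 from males and 40 from females, and the age of each rat is not given in the labels.

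The rats were selected on measured values. Each rat of batches 2, 3, 4 and 6 (80 rats) received a score, the mean of its log2 levels of Fos, Junb and Egr1 after the mean of its batch had been subtracted from each gene. The rats of each batch were ranked by score and cut into 3 parts of near-equal size, and the top and bottom parts were taken, which gave 26 high and 26 low rats, 52 of the 81, and left 28 in the middle. Batches 2, 3, 4 and 6 gave 5, 7, 9 and 5 rats to each side. These groups were made from the data and are not groups of the study. The high group held 16 females and 10 males, the low group 8 females and 18 males, and the middle 15 females and 13 males.

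Immediate-early genes are transcribed within minutes of a stimulus, without the need for new protein, and neurons use them to couple firing and calcium entry to longer changes in transcription. Fos and Junb encode partners of the AP-1 transcription factor, a dimer that binds DNA through a leucine zipper, and Egr1 encodes a zinc finger transcription factor. Their promoters are classical targets of the cyclic AMP response element binding protein and of serum response factor, and their mRNA is short-lived, so that they are widely used as markers of recent neuronal activity, also in the habenula, where aversive events raise them.

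The promoters of Junb and Egr1 are shown because these genes chose the rats, and any matches to the cores of 2 response elements are marked in them. Each line holds the 250 bases before the annotated start of transcription on the plus strand of the rat assembly GRCr8, from RefSeq, which is a different build from that of the expression values. Capitals mark the core of the cyclic AMP response element, TGACG or its reverse complement, and the CArG box, the core of the serum response element. The Junb line lies at chr19:40080876-40081125 and the Egr1 line at chr18:26736828-26737077.
Junb: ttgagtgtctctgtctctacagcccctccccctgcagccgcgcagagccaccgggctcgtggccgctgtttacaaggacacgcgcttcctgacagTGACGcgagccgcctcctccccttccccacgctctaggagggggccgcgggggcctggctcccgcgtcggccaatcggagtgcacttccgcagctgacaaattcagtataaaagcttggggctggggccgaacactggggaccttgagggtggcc
Egr1: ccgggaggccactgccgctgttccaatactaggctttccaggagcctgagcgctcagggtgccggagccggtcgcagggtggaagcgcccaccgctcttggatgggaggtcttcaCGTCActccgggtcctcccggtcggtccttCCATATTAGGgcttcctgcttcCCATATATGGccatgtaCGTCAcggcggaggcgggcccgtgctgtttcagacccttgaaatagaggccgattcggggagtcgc

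Counted back from the start, the Egr1 line holds CArG boxes at -105 to -96 and at -83 to -74 and the element core at -135 to -131 and at -66 to -62. The Junb line holds 1 core, at -155 to -151, and no CArG box in this window. Over the same 250 bases of 33365 promoters, searched on both strands, 1.496% held a CArG box and 18.2% the core TGACG. The full element TGACGTCA, which contains the core, was present in 1.59%, the AP-1 site TGAGTCA in 4.06% and the EGR site GCGTGGGCG in 0.480%, and neither line holds any of these. These matches describe letters and were not tested as sites.

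Fos, identifier ENSRNOG00000008015, ranged from 298 to 1591 normalized counts in the 26 high rats, with a median of 649. In the 26 low rats it ranged from 74 to 517, with a median of 260.5, and in the 28 middle rats from 173 to 903, with a median of 520.5. A normalized count is a read count estimated per gene and scaled by the authors so that the upper quartile of each rat was about the same, and levels below are given as log2 of this count plus 1. High and low rats did not overlap in Fos within batches 2, 3 and 6, whereas a single low rat reached the lowest high rat in batch 4. Across batches 9 low rats lay at or above the lowest high rat. The mean log2 level of Fos was 9.39 ± 0.55 in the high rats (SD, n = 26), 8.90 ± 0.60 in the middle (n = 28) and 7.84 ± 0.80 in the low rats (n = 26).

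Junb, identifier ENSRNOG00000042838, ranged from 165 to 1450 normalized counts in the high rats (median 401.5) and from 107 to 466 in the low rats (median 196). The middle rats covered 95 to 544 (median 281). Within batches 2, 3 and 4 the high and low rats did not overlap, whereas over all batches 19 of the 26 low rats reached the lowest high rat, since batches differed in level. Egr1, identifier ENSRNOG00000019422, ranged from 169 to 2164 normalized counts in the high rats (median 979), from 400 to 2013 in the middle (median 685.5) and from 156 to 1094 in the low rats (median 368.5). In batch 3 all 7 low rats lay above the lowest high rat in Egr1, because of 1 high rat described below.

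As a description of how far the rule parted the rats, the high minus low difference was 1.54 on the log2 scale for Fos, 1.46 for Egr1 and 1.06 for Junb, or 2.92-fold, 2.75-fold and 2.08-fold on the scale of the count plus 1. The difference was not even over batches. Batches 2, 3, 4 and 6 gave 1.30, 2.37, 0.78 and 2.02 for Fos. Junb followed with 1.12, 1.80, 0.66 and 0.67 in the same order, and Egr1 with 1.70, 1.78, 1.12 and 1.38. The SD of the score was 0.891 in batch 3 and 0.389 in batch 4, the widest and the narrowest of the 4 batches.

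**Figure D1:**
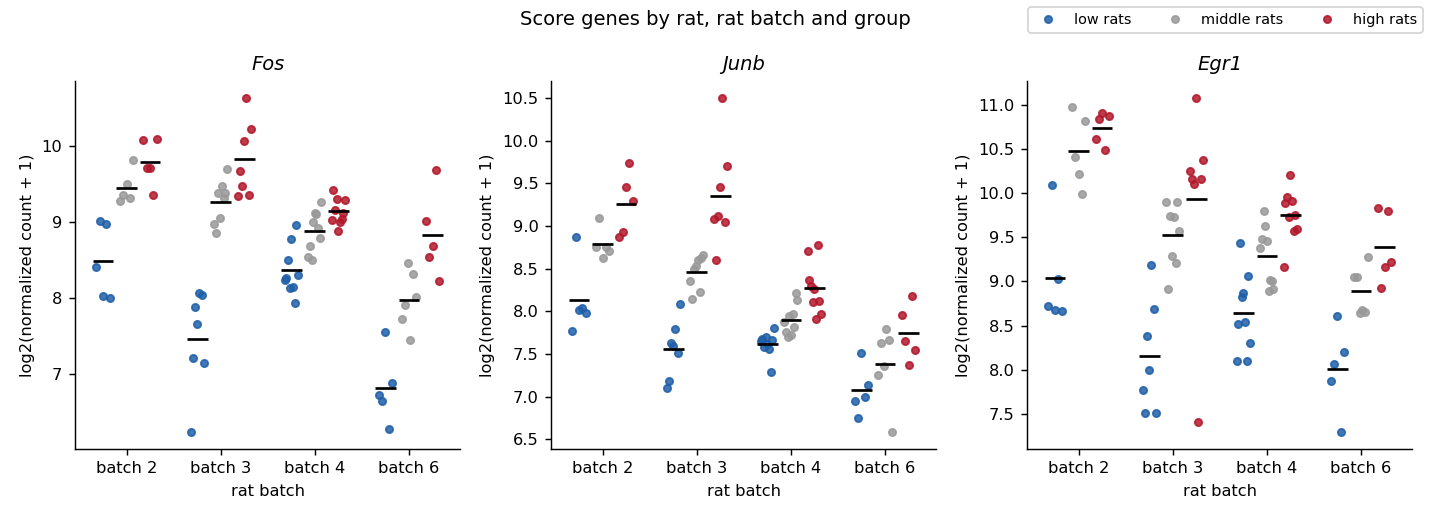
Log2(normalized count + 1) of Fos, Junb and Egr1 in each of 80 rats by rat batch, with low, middle and high rats in blue, grey and red and the mean of each group as a black bar. The groups part least in batch 4, and 1 high rat of batch 3 has the lowest Egr1 of its batch, at 7.41.

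Rats near the edges of the groups differed little. In batch 2 the lowest high rat had a score of 0.47 and the highest middle rat 0.43, while the highest low rat had -0.02 and the lowest middle rat 0.00. In batch 3 the upper edge fell between 0.63 and 0.46 and the lower edge between -0.21 and -0.50. The edges of batch 4 were 0.29 against 0.21 and -0.06 against -0.09, and those of batch 6 were 0.32 against 0.20 and -0.06 against -0.12. The lowest score of any rat was -1.81 and the highest 1.36, both in batch 3.

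The score averages 3 genes, which raises the question of whether they moved together across rats. After batch means were removed, Fos and Junb correlated with Pearson's r of 0.79 and Spearman's rho of 0.76 over the 80 rats, Fos and Egr1 with r of 0.73 and rho of 0.73, and Junb and Egr1 with r of 0.57 and rho of 0.67. All 6 coefficients had a permutation p of 1e-05, the smallest that 100000 permutations within batches can give, also after Benjamini-Hochberg adjustment over the 6. Without the 2 rats farthest from the median of the first gene, r was 0.78, 0.70 and 0.75. Within batches r ranged from 0.66 to 0.89 for Fos and Junb, from 0.66 to 0.90 for Fos and Egr1 and from 0.48 to 0.84 for Junb and Egr1.

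Female rat 32 of batch 3, a high rat with a score of 0.67, went against this relation. Its Fos (1591 normalized counts) and its Junb (1450) were the highest of the 22 rats of its batch, and its Egr1 (169) was the lowest. Relative to the batch mean these levels were 1.77 and 2.05 higher and, for Egr1, -1.81 on the log2 scale. It had 534 genes listed at 0, close to the median of 540 over all rats.

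**Figure D2:**
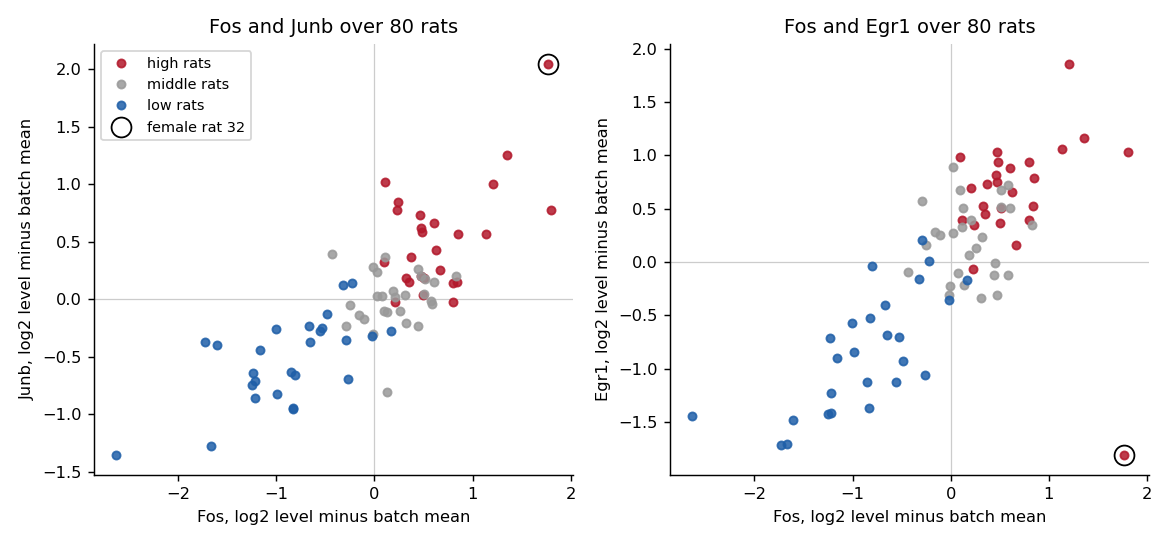
Log2 level minus the batch mean of Junb and of Egr1 against that of Fos, 1 point per rat (80 rats), colored by group, with female rat 32 ringed. The points rise together in both panels (r of 0.79 and 0.73), and the ringed rat has high Fos and Junb with low Egr1.

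Each score gene was also left out in turn and compared between rats ranked on the other score genes. The score genes correlated across these same rats, as given above. Ranking on some of them therefore tends to separate the rats in the gene left out. The differences and p-values below restate that correlation and are not independent support for the split. When Junb and Egr1 alone ranked the rats, Fos was 9.32 at the median of the 26 high rats (7.90 to 10.22) and 8.03 at the median of the 26 low rats (6.23 to 9.32). The groups overlapped, and they differed by 1.38 log2 units (SE 0.151, limma adjusted p 1.03e-08). With 0.126% of 17510 genes called higher in that fit, Fos was among 22. When Fos and Egr1 ranked them, Junb was higher by 0.88 (SE 0.106, limma adjusted p 1.67e-07; 0.0914% of genes called higher), with 7.38 to 9.70 in the high and 6.75 to 8.87 in the low rats. When Fos and Junb did so, Egr1 was higher by 1.32 (SE 0.177, limma adjusted p 4.01e-06; 0.0971% called higher), with 7.41 to 11.08 against 7.29 to 10.10.

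Which other genes differed between high and low rats was then asked of the remaining 17509 genes, with batch as a covariate. The expression values carry Ensembl gene identifiers, which the deposited values do not pair with symbols. Other names were taken only from the reference tables used here, which hold no rat Ensembl identifiers, so genes other than the 3 score genes, which the rule gives by identifier, are left unnamed, although the study pairs some identifiers with symbols elsewhere. Of the 17509 genes, 17 were higher in the high rats and 0 were lower at a limma adjusted p under 0.05 (0.0971% higher and 0% lower). At an unadjusted p under 0.05 the counts were 300 higher and 343 lower. The difference of the median gene was -0.003 log2 units, in values that had been scaled to a common upper quartile. The count changed with the batches held, with 10 genes called higher without batch 2 and 6 without batch 3. Without batch 4 and without batch 6 it was 16 each. All of these fits held fewer rats, and why the counts differed was not tested. With 20 expression components added as covariates 6 were called, and with each gene transformed to normal scores 9.

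The 17 genes were higher by 0.33 to 1.64 on the log2 scale, with a median of 0.94 (1.92-fold). Of these, 8 differed by more than 1 on this scale. Their mean level over the 80 rats ranged from 2.57 to 10.24, with 13 at 5 or above, and 1 of them was listed at 0 in at least 1 rat. None of the 17 shared its row with another gene. For all 17 the mean of the middle rats lay between the means of the low and the high rats. The same was true of 6129 of the 17509 genes tested. However, the median absolute difference over all genes tested was 0.06, and a wide gap makes a mean in between more likely.

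**Figure D3:**
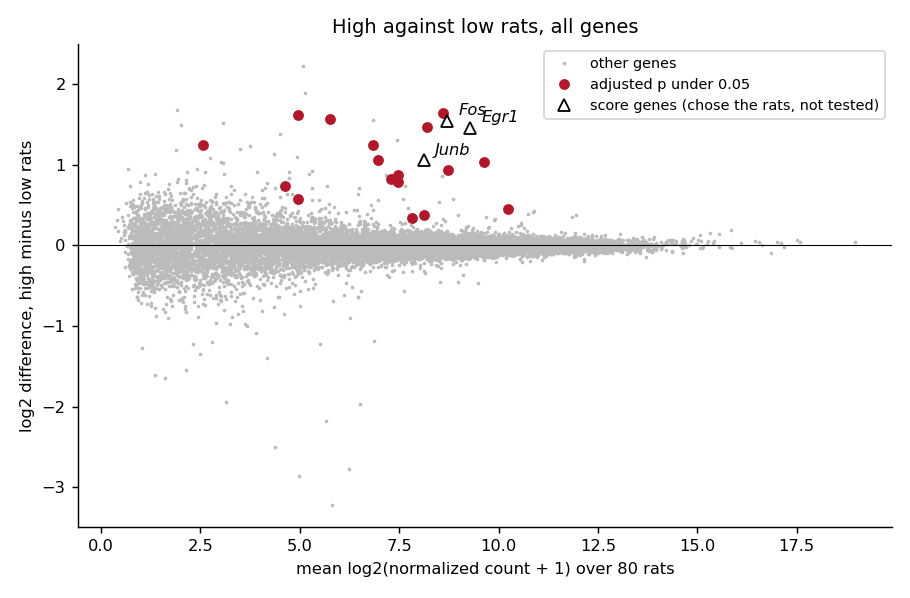
Log2 difference between the 26 high and 26 low rats against the mean log2 level over 80 rats for each gene, with the 17 called genes in red and the score genes, which chose the rats, as open triangles. Genes at intermediate and high levels lie in a narrow band around 0, and all 17 called genes are above it.

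ENSRNOG00000007830 and ENSRNOG00000020009 had the largest rises among called genes with a mean log2 level of at least 5. ENSRNOG00000007830 ranged from 152 to 4027 normalized counts in the high rats (median 394.5) and from 89 to 1370 in the low rats (median 210.5), with the middle rats reaching 3243 (median 396.5). The groups overlapped over all batches and parted only in batch 6. The rise was 1.64 log2 units (SE 0.262, limma adjusted p 0.00023), and by 2.66, 2.57, 0.58 and 1.21 in batches 2, 3, 4 and 6.

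ENSRNOG00000020009 was a gene of lower counts, with 12 to 217 in the high rats (median 105.5), 12 to 297 in the middle (median 59.5) and 13 to 73 in the low rats (median 28). High and low rats did not overlap in batches 2 and 6. Its difference was 1.57 (SE 0.2, limma adjusted p 1.21e-06) and changed less from batch to batch than that of the former, with 1.97, 1.40, 1.31 and 1.87. In female rat 32, the rat with low Egr1, this gene was also the lowest of the 22 rats of its batch, at 12 normalized counts, and ENSRNOG00000007830 was 19th from the top, at 152. Of the 17 genes, 11 were above the batch mean in this rat and 6 below.

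The 17 genes were compared between batches. The difference was positive in all 4 batches for 16 of them, and the exception was -0.02 in batch 6. For batches 2, 3, 4 and 6 the median over the 17 was 1.26, 1.60, 0.47 and 0.54. Since these genes were called on the same rats, this describes where the difference was large. A limma F-test of the difference between batches called 0 of 17509 genes (1073 at an unadjusted p under 0.05, 6.13%), among them 11 of the 17. The gap between high and low rats was itself unequal, with a Fos difference of 2.37 in batch 3 and 0.78 in batch 4. A gene that follows the score would then also differ more in batch 3, and this test cannot separate that from a changed relation to the score. When the score was used as a continuous term over all 80 rats, the same test called 10 genes.

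**Figure D4:**
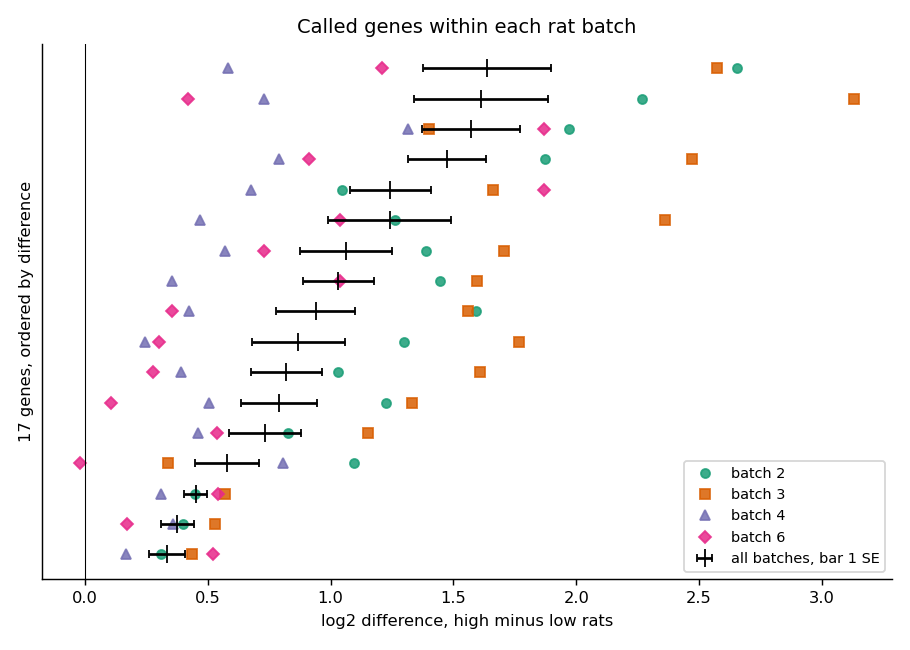
Log2 difference between high and low rats for each of the 17 called genes in batches 2, 3, 4 and 6 (colored symbols), and over all batches with a bar of 1 SE (black). Batches 2 and 3 lie to the right of batches 4 and 6 for most genes, and 1 gene of batch 6 lies at -0.02.

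To look at rats that a list had not been drawn from, the comparison was fitted in batches 2 and 3 alone and in batches 4 and 6 alone. In batches 2 and 3, 12 genes were called (0.0685%), all higher, and in batches 4 and 6 all 12 were again higher in the high rats, with a median difference of 0.50. Only 2 of the 12 were also called there. In batches 4 and 6, 3 genes were called (0.0171%), which were all higher in batches 2 and 3 too, with a median difference of 1.64, and 2 of the 3 were called. The share of all genes that were higher in either pair of batches was not counted. Genes of 1 list can move together across rats, so the members of a list are not independent checks.

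The 28 middle rats had no part in the calls, although they share batches with the others. Among these rats the slope on the score was positive for all 17 genes, compared with 48.4% of all genes tested. It was positive with an unadjusted p under 0.05 for 7 of the 17, compared with 1.33% of all genes. The 17 genes also moved together. Over the 80 rats, after batch means were removed, all 136 pairs of them correlated positively (median r 0.51, 0.07 to 0.87). They are therefore not 17 independent checks. The slopes ranged from 0.39 to 2.47 log2 units per unit of score, with a median of 0.84, and 0 of all genes passed after adjustment (limma, 479 at an unadjusted p under 0.05).

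Across all 80 rats the correlation of the 17 genes with the score ranged from 0.33 to 0.81 after batch means were removed, with a median of 0.65. These correlations are a description, as the rats share batches and libraries with the score. Besides the score genes, 17 genes had a correlation above 0.5, of which 15 were among the 17 called, and 0 genes had one below -0.5. The most negative correlation of any gene was -0.42. Female rat 7 of batch 3, which had the highest score, also had the highest mean level of the 17 genes, 1.45 above its batch mean.

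The score was set against the main components of variation in these samples. Batch means had been removed from the score but not from the values behind the components, and 65.3% of all genes differed between batches. The part of a component that lies between batches cannot follow the score, so a low share is partly fixed in advance. Components within batches were not computed. Component 1 of the 80 rats held 14.98% of the variance of all genes, and its squared correlation with the score was 0.703%. The largest was that of component 6, at 12.2%, which itself held 2.55% of the variance.

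Sex was compared because the rule did not use it. The score was higher in females than in males by 0.39 on the log2 scale after adjustment for batch (two-sided permutation of sex within batches, 100000 permutations, p 0.00851), with 0.19 ± 0.61 in 39 females and -0.18 ± 0.63 in 41 males (SD). The sexes overlapped widely. The mean of the females exceeded that of the males in all 4 batches, by 0.21, 0.65, 0.22 and 0.45 in batches 2, 3, 4 and 6. Of the score genes taken singly, Fos had the largest sex difference, 0.57 log2 units (SE 0.17, limma adjusted p 0.34), followed by Egr1 with 0.32 (SE 0.178, limma adjusted p 0.998) and Junb with 0.28 (SE 0.125, limma adjusted p 0.912). None of the 3 passed the test over 17512 genes, of which 23 (0.131%) did.

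**Figure D5:**
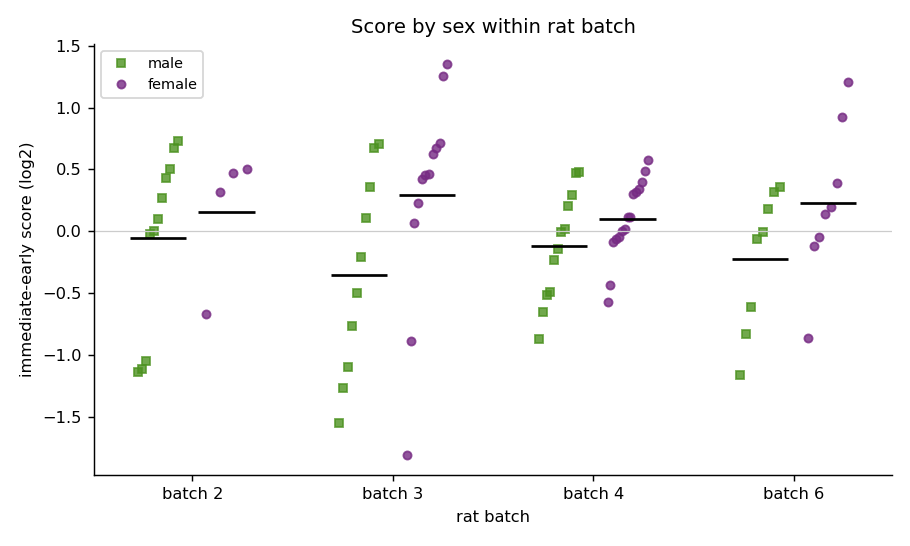
Immediate-early score (log2) of 80 rats by rat batch and sex, 1 symbol per rat (squares males, circles females) with the mean as a black bar. The mean of the females lies above that of the males in each batch, and the sexes overlap.

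The unequal share of the sexes in the high and low group moved with the comparison of genes. Of 18 genes that were lower in the high rats by more than 1 on the log2 scale, none of which was called, 5 were among the genes called between the sexes, including 4 of the 5 with the largest falls. With sex as a covariate 17 genes lay below -1, of which 10 were among the 18, and the most negative difference went from -3.22 to -2.12. Of 24 genes that were higher by more than 1, 8 were called, and 1 of the 24 was called between the sexes. None of the 17 called genes was called between the sexes. With sex as a covariate 18 genes were called higher, of which 16 were among the 17, and a test of whether the difference varied with sex called 0 genes (limma, 325 at an unadjusted p under 0.05).

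All 3 score genes differed between batches before centering (limma F-test adjusted for sex, adjusted p 1.62e-05 for Fos, 5.99e-09 for Junb and 0.000153 for Egr1), as did 65.3% of all genes. Fos was highest in batch 2, at 9.24 ± 0.66 (SD, n = 15), and lowest in batch 6, at 7.88 ± 0.93 (n = 16). Junb and Egr1 were also highest in batch 2 and lowest in batch 6. Of the 17 called genes, 16 differed between batches. Batch means were removed from the score and fitted in every comparison.

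Measures of the libraries that the rule did not use were set side by side. Genes listed at 0 numbered from 376 to 1491 in the high rats (median 555) and from 358 to 1578 in the low rats (median 496), a batch-adjusted difference of 4.58 genes (permutation p 0.952). The scaled total ranged from 16.3 to 19.2 M in the high rats and from 16.2 to 18.4 M in the low rats, where M is 1000000 counts (batch-adjusted difference 0.152, permutation p 0.259). The depth before scaling could be recovered for 61 of the 81 rats and was unknown for the others. It ranged from 15.1 to 51.3 M in 16 high rats (median 18.3) and from 5.74 to 25.2 M in 20 low rats (median 19.3), with a permutation p of 0.367. The 51.3 M of male rat 34 and the 5.74 M of male rat 26 rest on scaling factors outside the range tried on simulated data. Both values are thus less certain, and both entered the test. The columns of the table stand in 3 alphabetical runs of rat identifiers. Batch 2 lies wholly in run 1 and batches 4 and 6 in run 3, so run was not tested apart from batch there. Only batch 3 spans the runs. In it, run 2 against run 1 called 4020 of 17512 genes (limma adjusted p under 0.05, sex as a covariate). Fos was higher by 1.01 in run 2 (SE 0.415, limma adjusted p 0.08) and did not pass, nor did Junb or Egr1. With the run as a covariate 17 genes were called higher in the high rats. Markers of the LHb, of its neighbors and of glia were not analysed here, since identifiers were not matched to symbols, so differences in the dissected tissue between high and low rats were not tested. In tissue samples of this kind, more cells that express a gene and more RNA per cell cannot be told apart.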

How the data were processed

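Per the labels, tissue was dissected on a cold plate, and RNA was extracted with a column kit. The authors trimmed reads with cutadapt and estimated counts per gene with RSEM, with Rnor_6.0 named as build in the submitters' processing notes, adjusted them to a common upper quartile with DESeq2 and deposited log2 values of the adjusted, rounded count plus a pseudocount of 1. Versions are not given in the sources used here. Such differences understate the change of genes with low counts, and estimated counts divide reads between near-identical genes.

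Rats were matched to columns by title, and replicate numbers only name them. For a pair of male rats the labels record that the authors exchanged the identifiers. Without this pair 14 genes were called higher. The 6 samples removed by the authors were not analysed here, and batch 5, with 1 rat, lies outside the rule. High and low rats were compared with limma 3.58.1 in R 4.3.3 (lmFit, eBayes with an intensity trend, batch as a covariate, two-sided, Benjamini-Hochberg adjustment over 17509 genes, threshold 0.05), tested on simulated data. The 3 score genes were left out of the adjustment and of every count, except where one was held out of the score. Score by sex and library measures used 100000 permutations within batches (Python 3.11.15, numpy 2.4.6, scipy 1.17.1). Depth was recovered by maximum likelihood from the spacing of low whole-number values, where the best factor led by at least 20 log-likelihood units. The p-values measure the spread between rats.

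The members, the gene lists and the tests were chosen with earlier results of these data known. Leaving out each rat, the fits within batches, the middle rats and the held-out genes were added after seeing the data. The rule for named genes took the score genes, called genes of the lists, the called genes with the largest rise or fall whose mean log2 level reached 5, and the genes most correlated with the score. Names were restricted to the deposited values and the reference tables given, which matched 0 identifiers to symbols, and a pairing of some identifiers that the study gives elsewhere was not used. The rule also asked for a symbol, so it named none of the called genes. The 2 largest rises at that level are given by identifier through a choice made outside the rule. For want of symbols, the gene lists (immediate-early, signalling, cell type and quality genes) and motif counts in called genes were not run. ENSRNOG00000022572 and female rat 32 were chosen after their values were seen.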

Additional observations from a re-analysis of the deposited data

Results flagged for a closer look

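Rats far from the others were sought by Dixon's criterion in 84 sets of 5 to 9 rats, the high, middle and low rats of each batch. The measures were the genes listed at 0, the mean level of the 17 called genes, the score genes and the 2 genes given by identifier. Such a rat was found in 13 sets, where chance gives about 1 in 20, or 4.2, in independent sets. These sets share rats, and all measures but the genes listed at 0 chose the groups or were called between them. The 13 and the 4.2 can therefore not be weighed against each other.

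Male rat 2, among the low rats of batch 2 and just under its upper edge, stood above the other 4 low rats of that batch. Its mean level of the 17 genes was 0.107 above the batch mean, against -1.02 to -0.856, its Junb was 8.87 (others 7.77 to 8.03), its Egr1 10.10 (8.67 to 9.03) and its ENSRNOG00000007830 10.42 (7.67 to 8.06). Male rat 3, among the middle rats of batch 2, had Junb at 9.09 (others 8.62 to 8.75). Female rat 32, among the high rats of batch 3, had Egr1 at 7.41 (others 10.10 to 11.08). Male rat 40, among the low rats of batch 4, had Junb at 7.29 (others 7.56 to 7.80). ENSRNOG00000007830 was 8.89 in male rat 19, among the low rats of batch 4 (others 7.46 to 8.13), and 7.40 in male rat 36, among the high rats of batch 6 (others 8.25 to 8.44). Male rat 11, among the middle rats of batch 6, had a mean level of the 17 genes of 0.346 above the batch mean (others -0.098 to -0.008).

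The genes listed at 0 numbered 1404 in female rat 6, among the high rats of batch 3 (others 376 to 644), 1491 in female rat 4, among the high rats of batch 4 (others 430 to 808), and 1110 in female rat 11, among the middle rats of batch 6 (others 368 to 485). For 10 genes the slope on the score, used as a continuous term, differed between rat batches (limma F-test, adjusted p under 0.05).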

How the results depend on the processing

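The count of 17 genes higher lay between 13 and 25 under 15 of the 19 alternatives and was 6 with 20 expression components as covariates, 9 with the rank-based transformation, 10 without batch 2 and 6 without batch 3. The causes were not tested. The last 2 settings held fewer rats, as did those without batch 4 and without batch 6, which gave 16 each. With each of the 52 rats left out in turn it lay between 14 and 21. No gene was lower under 18 alternatives, and 1 was with Fos left out of the score. Both genes given by identifier passed under all 19. The test of a difference between batches called 0 genes under 3 alternatives and 10 with the score as a continuous term, and the test between sexes called 0 under all 4. The look-up gave 2 genes in both directions and with the filter on low levels. The sex difference of the score kept its direction and its side of the threshold under all 8 alternatives, from 0.287 without batch 3 to 0.484 without batch 4. The difference in genes listed at 0, which missed the threshold throughout, was -0.524 without batch 2 and -45 without batch 4. No paired analysis was possible because replicate numbers follow the order of accession and pair no rats. The alternatives for the immediate-early lists were not run, as identifiers were not matched to symbols here. Depth was unknown for 20 rats.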

Other observations

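ENSRNOG00000022572 was listed at 0 in 7 of the 26 high rats, in 4 of the 28 middle rats and in 0 of the 26 low rats, and its medians were 6.35, 6.85 and 7.05 on the log2 scale. Its difference was -2.18 (SE 0.614, unadjusted p 0.000818, limma adjusted p 0.457), which did not pass the test, and -2.06 with sex as a covariate. The difference was negative in all 4 batches, from -4.40 in batch 3 to -0.90 in batch 6.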
